A study of Drosophila sechellia and Drosophila melanogaster and Drosophila simulans with 18 samples.

Results

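Whole adult females of the dietary specialist *D. sechellia* were compared between food with hexanoic acid (HA) and control food. Of the 18 RNA-seq libraries of the series, 6 are of *D. sechellia*, and the other 12 are of *D. melanogaster* and *D. simulans* on the same diets. The HA group holds 3 libraries of females of strain 14021-0428.25 kept for 24 h on instant food with 0.23% HA, and the control group holds 3 libraries of the same strain kept for 24 h on the same food without the acid. Flies of both groups were 0 to 3 days past eclosion when the exposure began and were reared on cornmeal medium. They were pooled by 10 whole females per library, so all *D. sechellia* values are of 1 strain and 1 exposure. The libraries of the other species, also 3 per diet at 24 h, are of other strains. These are 14021-0231.36 for *D. melanogaster* and 14021-0251.195 for *D. simulans*.

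Expression is given as FPKM, the number of fragments scaled to transcript length and library size, which corrects for gene length and library depth. The deposited table holds 1 FPKM per gene and diet, pooled over the 3 libraries, so there is no replicate check here. No value per library is in the table, no SD or test was computed from it, and each difference below describes the pooled libraries only. The depth behind each value is not in the table, so a high FPKM of a very short gene may rest on few reads. All genes with at least 1 FPKM on both diets were kept, which left 11697 of 17273 (67.7%). The change of a gene is log2((HA FPKM + 1)/(control FPKM + 1)), a scale that understates the change of genes of low level. A gene is called higher or lower on HA where this change is at least 1 in size. Nearly all genes of the table carry only a number, GM followed by digits, and no name was given to them here. The genes with a symbol were therefore described by function, and the numbered ones by level, length and position.

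HA is a medium-chain fatty acid of the ripe fruit of *Morinda citrifolia*, on which *D. sechellia* feeds and lays eggs. A fly takes such acids up with its food and also smells and tastes them, partly through odorant-binding proteins, small secreted carriers in the fluid around chemosensory neurons. Insects break foreign compounds down with enzymes such as esterases and glutathione S-transferases, and answer microbes in the food or in wounds with antimicrobial peptides such as the cecropins, which the fat body secretes into the blood.

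The pools matched their labels as adult females. Yp2, a yolk protein made by the fat body and ovary, was at 10825 FPKM on HA food and 10910 FPKM on control food, and the maternal genes nos and bcd were read on both diets. Of 9 markers of male accessory gland and testis found by symbol, 7 were at 0 on both diets, and the 9 together summed to 0.622 FPKM on HA food and 0.847 FPKM on control food. Only 3 of 19 female markers were found by symbol, and no chorion gene was among them. Whole flies hold many tissues, so fewer cells of a type and less RNA per cell cannot be told apart in any value below.

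Most genes had nearly the same level on both diets. The median change over the 11697 genes was 0.02, the central 50% of genes lay between -0.10 and 0.15, and 91.0% lay within 0.5 of zero. A log2 change of at least 1 was found for 154 genes (1.32%) and of -1 or less for 96 genes (0.821%), together 2.14% of all genes kept. The share past either limit did not follow the level in one direction. It was 1.45% of the genes with a mean of 1 to 3 FPKM, 4.02% at 3 to 10 FPKM, 1.74% at 10 to 30 FPKM, 1.15% at 30 to 100 FPKM, 2.37% at 100 to 300 FPKM and 3.91% at 300 FPKM or more. It went down with locus length over most of the range, where genes that share a locus carry the length of the whole locus. Of the 639 genes under 300 bases, 58 were higher and 25 lower (13.0% in all), whereas the share was 3.14% at 300 to 1000 bases, 0.926% at 1000 to 3000 bases, 0.742% at 3000 to 10000 bases and 1.06% at 10000 bases or more. Among numbered genes alone the share under 300 bases was 9.48%, against 0.586% at 1000 to 3000 bases.

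**Figure D1:**
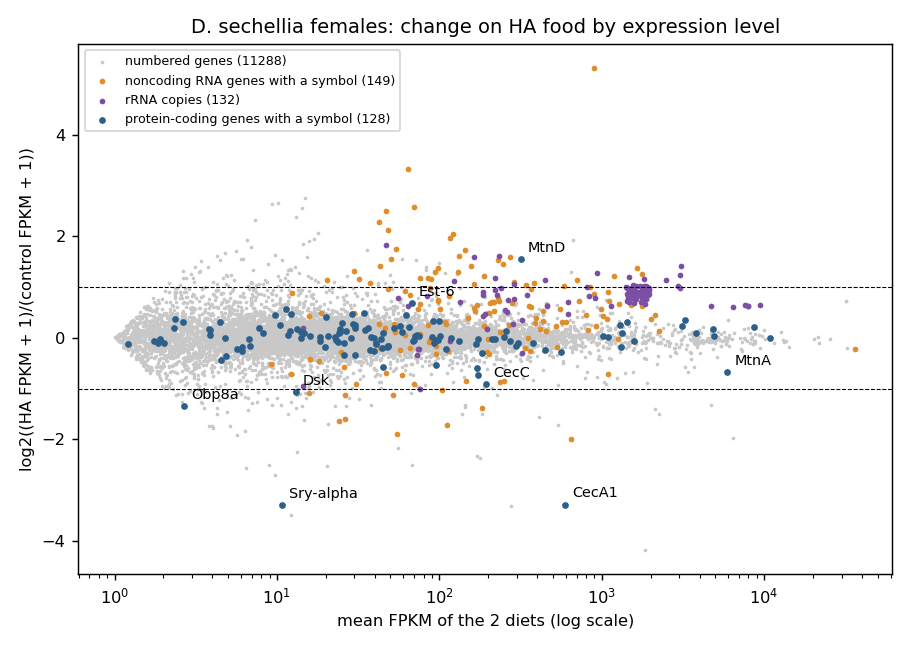
Change of each *D. sechellia* gene on HA food, log2((HA FPKM + 1)/(control FPKM + 1)), against its mean FPKM over both diets on a log axis, 1 point per gene with at least 1 FPKM on both diets. Dashed lines mark changes of 1 and -1. Most points lie near zero at every level, CecA1 and Sry-alpha lie near -3.3 among the protein-coding genes with a symbol, and most rRNA copies and many other noncoding genes lie above zero.

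The 4 kinds of genes differed in where their changes lay. Of 187 protein-coding genes with a symbol, 128 passed the 1 FPKM limit, with a median change of 0.01, 65 above zero and 63 below, 1 called higher (0.781%) and 4 called lower (3.13%). The 11288 numbered genes that passed had a median change of 0.02, with 94 called higher (0.833%) and 81 called lower (0.718%). Noncoding RNA genes with a symbol passed in 149 of 663 cases, with a median change of 0.50, and 37 were called higher (24.8%) and 10 lower (6.71%). The copies of ribosomal RNA genes, set apart because they share reads, passed in 132 of 139 cases, with a median change of 0.86, 22 called higher and 1 lower. Apart from rRNA, 850 genes with a symbol were in the table, 277 passed and 478 were at 0 on both diets.

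The cecropin CecA1 had the largest difference in FPKM among the protein-coding genes with a symbol that were called. CecA1 (FBgn0025653) encodes an antimicrobial peptide that acts on bacterial membranes, and lies on scaffold_4 of the dsec_caf1 assembly from 4888667 to 4888916. It was at 110 FPKM on HA food and 1077 FPKM on control food, a change of -3.29, or 9.83-fold lower on HA food. The other cecropins of the same cluster, which spans 6446 bases from 4887716 to 4894161, were lower by less. CecC was at 133 FPKM on HA food and 252 FPKM on control food (change -0.91), and CecB at 23.1 FPKM on HA food and 24.4 FPKM on control food (change -0.07). The andropin gene Anp, known in *D. melanogaster* as an antibacterial peptide of the male ejaculatory duct, was at 0 on both diets. The 3 cecropins together summed to 266 FPKM on HA food and 1353 FPKM on control food, and CecA1 made up 41.2% of the sum on HA food and 79.6% on control food. Cecropin genes are close in sequence, so the split of reads between them is uncertain.

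The difference at CecA1 stood out from the genes around it. Within 10000 bases on each side lie 12 other genes, of which 10 passed the 1 FPKM limit with changes between -0.91 and 1.07, the lowest of them CecC and the highest, the only one called, a snoRNA gene. Apart from CecB and CecC, those that passed are snoRNA genes of 1 locus and the gene that shares this locus (change -0.05). The 10 are thus few separate loci. The immune transcription factor gene Rel, which encodes the NF-kappaB protein Relish, was at 44.9 FPKM on HA food and 50.8 FPKM on control food (change -0.17). The 5 genes of humoral immunity found by symbol were CecA1, CecB, CecC, Anp and Rel, so their list only restates the values above. Of these 4 passed, all with a change below zero and a median of -0.54, and 1 was called lower. Of all 11697 genes kept, 5225 lay below zero and 0.821% were called lower. Few genes of this class carry a symbol in the table: attacins, diptericins, drosomycin and peptidoglycan recognition proteins have none. Cellular immune genes had other values. Thioester proteins coat microbes and mark them for uptake, and 4 of their 5 genes passed with a median change of 0.13 and none called. Tep4 was at 117 FPKM on HA food and 118 FPKM on control food, and Tep2 at 36.7 FPKM on HA food and 33.1 FPKM on control food. Tep6 was at 25.6 FPKM on HA food and 23.6 FPKM on control food, and Tep3 at 11.4 FPKM on HA food and 9.45 FPKM on control food (change 0.25).

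The metallothioneins are small proteins rich in cysteine that bind copper, zinc and cadmium and are made mainly in the gut. Their 4 genes were grouped after the values were seen. MtnD (FBgn0177984; scaffold_27, 374770 to 374971) was the only protein-coding gene with a symbol called higher, at 471 FPKM on HA food and 161 FPKM on control food, a change of 1.55 or 2.93-fold. MtnA (FBgn0263433; scaffold_0, 16295547 to 16295905) went the other way, at 4574 FPKM on HA food and 7279 FPKM on control food (change -0.67). MtnC was at 5137 FPKM on HA food and 4567 FPKM on control food (change 0.17), and MtnB at 3948 FPKM on HA food and 3704 FPKM on control food (change 0.09). Summed over the family the level was 14130 FPKM on HA food and 15710 FPKM on control food, a log2 ratio of -0.15, and MtnD made up 3.34% of the sum on HA food and 1.02% on control food. MtnD was the scarcest member on both diets.

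**Figure D2:**
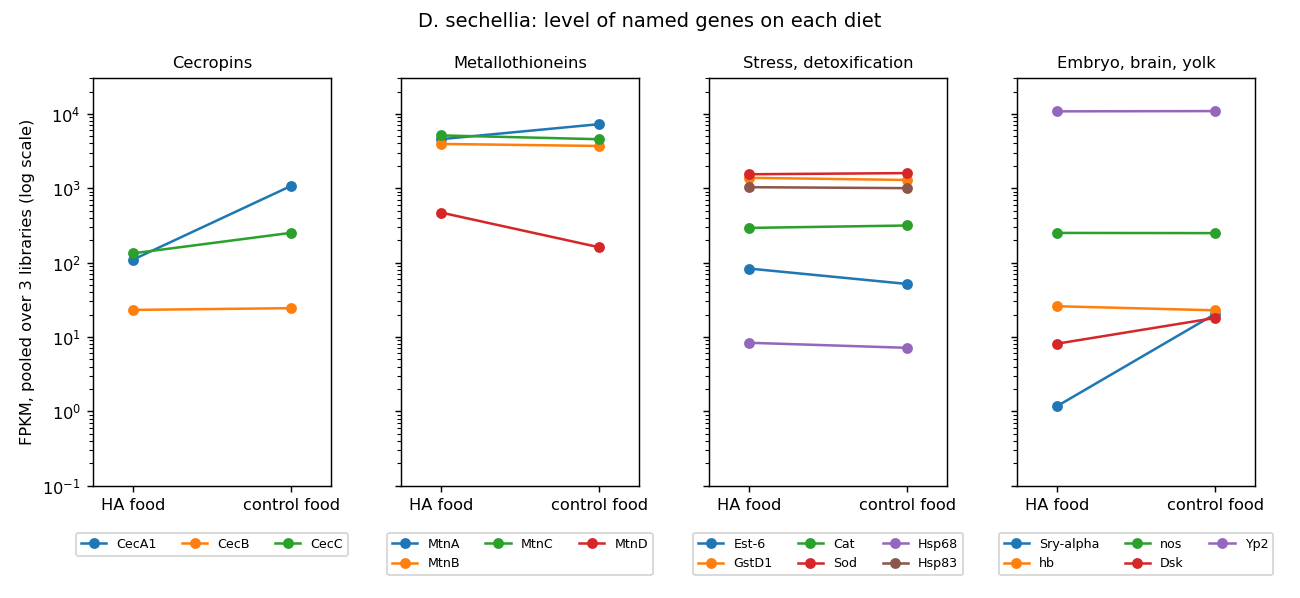
FPKM of named *D. sechellia* genes on a log axis, 1 line per gene joining the value pooled over 3 libraries on HA food, left, with that on control food, right. CecA1 at 110 FPKM on HA food and 1077 FPKM on control food and Sry-alpha at 1.17 FPKM on HA food and 20.4 FPKM on control food have the steepest lines, MtnD slopes the other way, and the stress genes Cat, Sod, GstD1 and Hsp83 are nearly level.

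Enzymes that act on foreign compounds are thinly covered by symbol. No cytochrome P450 or UDP-glycosyltransferase gene and no Osiris gene has a symbol in the *D. sechellia* table. Est-6, a carboxylesterase secreted into blood and, in *D. melanogaster*, also abundant in the male ejaculatory duct, was at 83.2 FPKM on HA food and 51.6 FPKM on control food (change 0.68), and had the second largest positive change among the protein-coding genes with a symbol that passed. Its tandem duplicate, Est-P, stayed under the 1 FPKM limit with 0.402 FPKM on HA food and 0.296 FPKM on control food. The list of esterases also took in epoxide hydrolases that act on juvenile hormone, Jheh1 at 43.7 FPKM on HA food and 44.3 FPKM on control food, and Jheh3 at 72.0 FPKM on HA food and 70.1 FPKM on control food. Over the 3 members that passed the median change was 0.04. GstD1, a glutathione S-transferase known for acting on DDT, was at 1381 FPKM on HA food and 1293 FPKM on control food (change 0.10).

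Genes of the response to oxidants and heat were close on both diets. Catalase, Cat, was at 293 FPKM on HA food and 316 FPKM on control food, and superoxide dismutase, Sod, at 1543 FPKM on HA food and 1599 FPKM on control food. Thioredoxin Trx-2 was at 1099 FPKM on HA food and 1091 FPKM on control food. The chaperone gene Hsp83 was at 1034 FPKM on HA food and 1003 FPKM on control food (change 0.04), and the inducible chaperone gene Hsp68 at 8.35 FPKM on HA food and 7.14 FPKM on control food (change 0.20). Hsp68 had the largest change of these 5.

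Odorant-binding protein (Obp) genes form the largest protein family with symbols in the table. Of 51 genes 27 passed the 1 FPKM limit, 16 with a change above zero and 11 below. Over all 11697 genes kept, 6472 lay above zero and 5225 below. The median change of the 27 was 0.13 beside 0.02 for all genes. Of the 27, none was called higher and 1 was called lower (3.70%), against 1.32% and 0.821% of all genes. That gene, Obp8a (FBgn0166603; scaffold_345, 10496 to 11221), was at 1.06 FPKM on HA food and 4.26 FPKM on control food (change -1.35). It is the protein-coding gene with a symbol that passed the 1 FPKM limit by the least, and the nearest one outside, r-cup, had 0.991 FPKM on HA food and 1.24 FPKM on control food. The other 26 lay between -0.73 and 0.48. Of the 24 genes that did not pass, 11 were at 0 on both diets, 6 at 0 on control food only and 3 at 0 on HA food only.

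The abundant Obp genes moved in both directions by small steps. Obp99c was at 1586 FPKM on HA food and 1269 FPKM on control food (change 0.32), and Obp99a at 1410 FPKM on HA food and 1180 FPKM on control food (change 0.26). Obp99b of the same genomic region was at 1238 FPKM on HA food and 1397 FPKM on control food (change -0.17). These carriers of the 99 region are the 3 highest of the family on both diets. Obp56d was next, at 411 FPKM on HA food and 485 FPKM on control food (change -0.24), and Obp56g was at 130 FPKM on HA food and 217 FPKM on control food (change -0.73). Among the 27 Obp genes that passed, the largest positive change was that of Obp28a, at 40.3 FPKM on HA food and 28.6 FPKM on control food (change 0.48).

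The Obp57 genes of *D. sechellia* are known for a part in its taste for the host plant, Obp57d and Obp57e in particular. Obp57e was at 3.00 FPKM on HA food and 2.24 FPKM on control food (change 0.31), while Obp57d was listed at 0 on HA food and at 0.737 FPKM on control food, under the limit. Obp57a was at 164 FPKM on HA food and 201 FPKM on control food (change -0.29), Obp57b at 70.4 FPKM on HA food and 60.4 FPKM on control food (change 0.22), and Obp57c at 136 FPKM on HA food and 206 FPKM on control food (change -0.59). The 5 genes of the cluster thus held changes of both signs, with a median of -0.04 over the 4 that passed. In the Obp56 cluster 3 of 9 genes passed, with a median of -0.24, and Obp56a was the only protein-coding gene with a symbol at 0 on 1 diet and at 1 FPKM or more on the other. Obp56a was listed at 3.15 FPKM on HA food and at 0 on control food, so no ratio is given for it. Odorant and gustatory receptors have 1 symbol in the table, the gustatory receptor Gr64e, at 0.123 FPKM on HA food and 0.0452 FPKM on control food, far under the limit in whole flies.

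**Figure D3:**
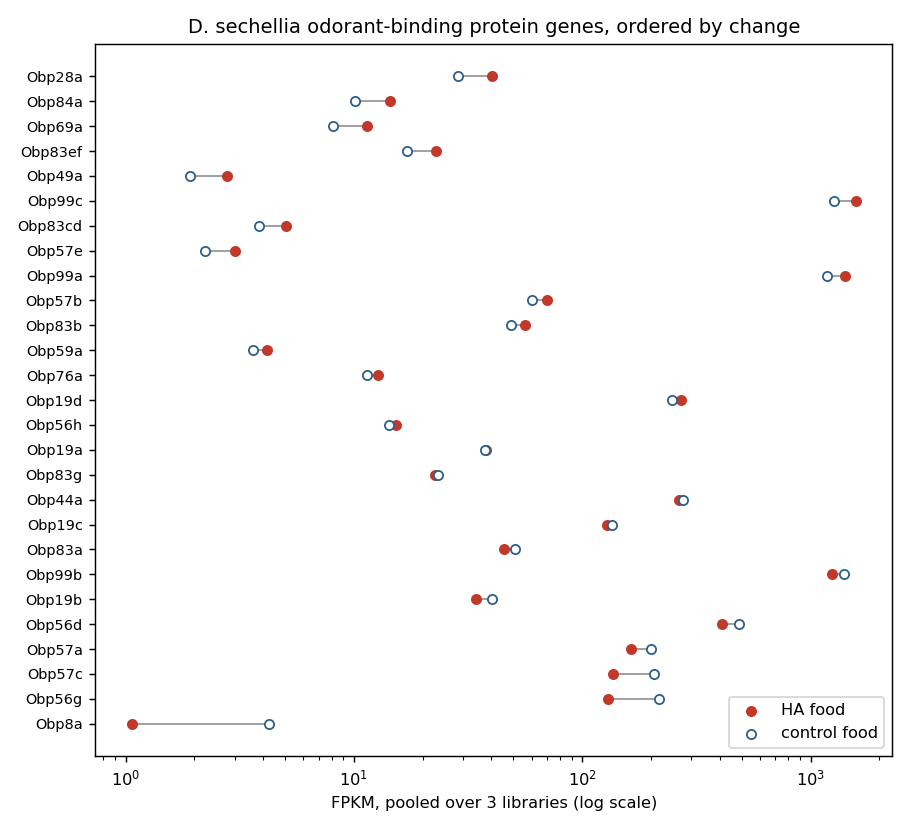
FPKM of the 27 odorant-binding protein genes with at least 1 FPKM on both diets in *D. sechellia*, on a log axis, ordered from the largest positive change at the top to the most negative at the bottom. Filled points are HA food and open points control food, each pooled over 3 libraries. The points of most genes nearly touch, and only Obp8a at the bottom is past the limit.

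Enzymes of sugar and starch digestion had small changes. All 10 maltase and amylase genes passed, 7 with a change below zero, with a median of -0.11 and none called. Over all 11697 genes kept, 5225 lay below zero and 2.14% were called. Mal-A7 had the most negative change of the 10, at 78.3 FPKM on HA food and 113 FPKM on control food (change -0.53). Mal-A1, the highest in level, was at 278 FPKM on HA food and 311 FPKM on control food (change -0.16). The 6 maltases of the Mal-A cluster on scaffold_1, within 22292 bases from 1978886 to 2001177, summed to 650 FPKM on HA food and 737 FPKM on control food. The 3 genes above zero were the amylases. Amyrel was at 27.8 FPKM on HA food and 22.6 FPKM on control food (change 0.28), Amy-p at 62.6 FPKM on HA food and 52.7 FPKM on control food (change 0.24), and Amy-d at 39.0 FPKM on HA food and 33.8 FPKM on control food (change 0.20). Amy-p and Amy-d are near-identical copies, so their separate values are uncertain.

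Other metabolic genes kept within narrow limits. The alcohol dehydrogenase gene Adh was at 3348 FPKM on HA food and 2851 FPKM on control food (change 0.23), in a locus that the table shares among 3 more genes, and its duplicate Adhr had a change of -0.13 close to the 1 FPKM limit. Together with Zw, glucose-6-phosphate dehydrogenase, and Gld, glucose dehydrogenase, these made up a list of 4 genes that all passed, with a median change of 0.03. The desaturase genes, which act in the synthesis of cuticular hydrocarbons, were both slightly below zero. DesatF was at 503 FPKM on HA food and 614 FPKM on control food (change -0.29), and Desat2 at 101 FPKM on HA food and 117 FPKM on control food (change -0.21). The gene nvd, whose product takes the first step from cholesterol to ecdysone, was at 71.8 FPKM on HA food and 52.5 FPKM on control food (change 0.44).

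Sry-alpha had the most negative change of the protein-coding genes with a symbol. Sry-alpha (FBgn0020088; scaffold_4, 4713135 to 4714724) is needed in *D. melanogaster* when the early embryo forms its cells. It was at 1.17 FPKM on HA food and 20.4 FPKM on control food, a change of -3.30, or 17.4-fold lower on HA food. Within 10000 bases on each side lie 11 genes, of which 9 passed with changes between -0.33 and 0.17 and none was called. The table holds 8 genes of early patterning and cell formation, of which 5 passed, with a median change of 0.01, and Sry-alpha was the only one called. The zygotic genes nullo, which acts in the same step, and ftz, a pair-rule gene, were both listed at 0 on HA food, nullo at 0.936 FPKM and ftz at 0.652 FPKM on control food. The gap gene kni was at 3.69 FPKM on HA food and 5.33 FPKM on control food (change -0.43). Genes whose RNA the mother lays into the egg were level: nos was at 251 FPKM on HA food and 249 FPKM on control food, bcd at 14.6 FPKM on HA food and 13.4 FPKM on control food, and hb, which is both maternal and zygotic, at 25.9 FPKM on HA food and 22.8 FPKM on control food (change 0.18). The segment polarity gene en was at 0.916 FPKM on HA food and 0.333 FPKM on control food, under the limit on both.

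Dsk encodes the neuropeptide drosulfakinin, a satiety signal of the brain. It was at 8.11 FPKM on HA food and 18 FPKM on control food (change -1.06), just past the limit. Its 3 neighbours within 10000 bases had changes between -0.40 and 0.20. The sex determination gene tra, which directs female splicing, was at 36.3 FPKM on HA food and 54.3 FPKM on control food (change -0.57), while its regulator Sxl was at 67.1 FPKM on HA food and 70.4 FPKM on control food and fru, which tra regulates, at 4.18 FPKM on HA food and 5.58 FPKM on control food. The clock gene per was at 5.66 FPKM on HA food and 6.55 FPKM on control food. Among developmental regulators the homeotic gene Ubx had a change of 0.57, at 13.9 FPKM on HA food and 9.02 FPKM on control food.

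Chromatin genes showed little difference. HP1A, the main heterochromatin protein, was at 218 FPKM on HA food and 222 FPKM on control food. HP1C was at 32.6 FPKM on HA food and 28.2 FPKM on control food (change 0.20), and the centromeric histone gene cid at 22.6 FPKM on HA food and 28.9 FPKM on control food (change -0.34). The hybrid incompatibility gene Hmr had a change under 0.01 in size. The median change was -0.02 over the members that passed, 5 of 8. Several of the protein-coding genes with a symbol of highest level had small changes as well, MtnA with -0.67 being an exception. The thioredoxin gene dhd, known from the *D. melanogaster* ovary, was at 9274 FPKM on HA food and 7965 FPKM on control food (change 0.22), the ribosomal protein gene RpS18 at 4953 FPKM on HA food and 4805 FPKM on control food, and the muscle myosin light chain gene Mlc1 at 3639 FPKM on HA food and 2865 FPKM on control food (change 0.34).

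Noncoding RNAs made up most of the genes with a symbol called higher, 37 of 38. The libraries were made by poly-A selection, and most RNAs of these classes carry no poly-A tail, so the values are of what was left after selection. Because rRNA copies were also higher on HA food, the values of both are given together, and the part of that carry-over in the values of the other RNAs was not tested. Small nucleolar RNAs guide the chemical modification of ribosomal RNA and in flies sit mostly in introns of other genes. Of 242 snoRNA genes 119 passed, with a median change of 0.49, and 33 were called higher (27.7%) and 7 lower (5.88%). Their changes ran from -1.99 for snoRNA:GM27562, at 259 FPKM on HA food and 1034 FPKM on control food, to 5.31 for snoRNA:GM27659, at 1754 FPKM on HA food and 43.1 FPKM on control food. The most abundant, snoRNA:GM27634, lay below zero, at 33782 FPKM on HA food and 39196 FPKM on control food (change -0.21). A further 29 snoRNA genes were at 0 on control food only and 17 at 0 on HA food only.

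The snoRNA genes did not move with the genes that share their locus. Of the 119, 96 share a locus in the table with 44 numbered or protein-coding genes, called hosts here. Whether each snoRNA lies in an intron of such a gene was not checked. Values of these short RNAs may rest on few reads, and the part of this in the comparison with hosts was not tested. The median change was 0.50 over these snoRNAs and -0.03 over the hosts, whose changes lay between -0.95 and 0.30 with none called, against 31 of the 96 snoRNAs called. The 23 snoRNA genes alone in their locus had a median change of 0.31, with 8 called higher and 1 lower. Of 10 loci with at least 3 snoRNAs, 8 held changes of both signs. One locus on scaffold_4, from 4884339 to 4886333, held 7 of them with changes from -0.27 for snoRNA:GM27575, at 178 FPKM on HA food and 214 FPKM on control food, to 1.07 for snoRNA:GM27578, at 516 FPKM on HA food and 245 FPKM on control food. The host gene there was at 4076 FPKM on HA food and 4222 FPKM on control food.

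Among spliceosomal RNAs and rRNA copies, U1, U2, 18S and 5.8S shifted more evenly, while U5, U6 and 5S held changes of both signs. Of 30 snRNA genes 27 passed, with a median change of 0.63, 4 called higher (14.8%) and 2 lower (7.41%). All 7 U1 genes lay above zero, for example snRNA:U1:3 at 1376 FPKM on HA food and 835 FPKM on control food (change 0.72), and so did all 6 U2 genes. The 6 U5 genes were spread from -1.90 to 0.75, with snRNA:U5:4 at 22.6 FPKM on HA food and 86.8 FPKM on control food and snRNA:U5:1 at 124 FPKM on HA food and 73.2 FPKM on control food. Among the 27 snRNA genes that passed, the largest positive change was that of snRNA:U4:2, at 200 FPKM on HA food and 64.3 FPKM on control food (change 1.62). Of the rRNA copies, the 97 of 103 5.8S copies that passed all lay above zero, with a median change of 0.88 and median levels of 2118 FPKM on HA food and 1145 FPKM on control food. The 6 copies of 18S lay between 0.62 and 0.66, with medians of 9479 FPKM on HA food and 6070 FPKM on control food, and the 29 of 30 5S copies that passed had a median of 0.71 with 7 below zero. Near-identical copies share reads, so they are 3 groups and not separate genes. RNase P RNA, which trims transfer RNA precursors, was at 1180 FPKM on HA food and 796 FPKM on control food (change 0.57).

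**Figure D4:**
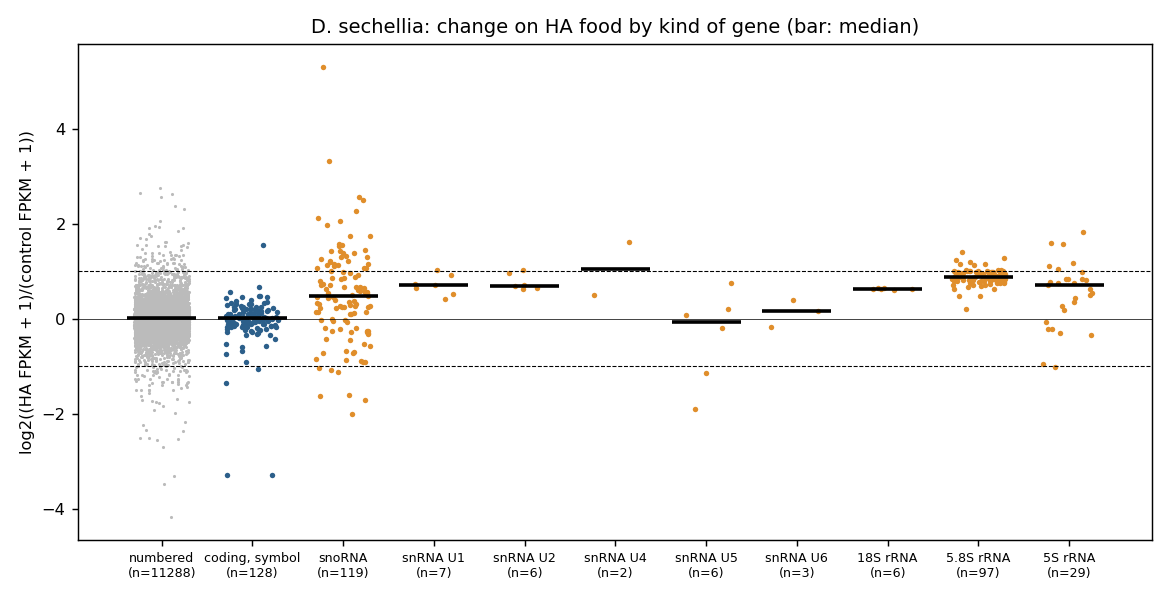
Change of *D. sechellia* genes on HA food, log2((HA FPKM + 1)/(control FPKM + 1)), by kind of gene, 1 point per gene or copy with at least 1 FPKM on both diets and a bar at the median. Dashed lines mark changes of 1 and -1. Numbered and protein-coding genes centre on zero, snoRNA genes spread widely around 0.49, and the 18S, 5.8S and 5S rRNA copies centre between 0.64 and 0.88.

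Many noncoding genes were listed at 0 on 1 diet. Of the noncoding genes with a symbol, 42 were at 0 on control food and at 1 FPKM or more on HA food, 28 of them with loci under 300 bases. A further 20 were at 0 on HA food and at 1 FPKM or more on control food, 8 of them with loci under 300 bases. For a gene that shares its locus this length is that of the whole locus and not of the RNA. For example, snoRNA:GM27630 is listed with a locus of 17297 bases. The study lists more reads for the HA libraries overall than for the control libraries. Of 78 microRNA precursor genes 68 were at 0 on both diets. Among the others, mir-317 was listed at 242 FPKM and mir-100 at 192 FPKM on HA food, both at 0 on control food, whereas mir-277 was at 0 on HA food and at 36.9 FPKM on control food. mir-2a-1, which passed, was at 101 FPKM on HA food and 266 FPKM on control food (change -1.38). Of 312 tRNA genes 7 were above 0 on either diet, and 4 of these were listed at the same 451 FPKM on HA food and a further one at exactly 2 times that value. tRNA copies of like sequence can share reads, so their separate values are uncertain. The copies at 451 FPKM and the one at 2 times that value all have loci of 73 bases. At this length such equal steps can also come from very few reads, and which of these holds was not tested. The same limit applies to other short loci, such as mir-317 with 92 bases, mir-100 with 82 bases and snoRNA:GM27562 with 68 bases. It may also apply to short RNAs listed with a longer shared locus, such as snoRNA:GM27659 with 933 bases.

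Numbered genes supplied the other called genes. Among all genes with at least 1 FPKM on both diets, the most negative change was that of GM15526 (FBgn0170444), on scaffold_9 from 2769436 to 2769645, at 193 FPKM on HA food and 3510 FPKM on control food (change -4.18, or 18.2-fold lower). GM23740 followed, at 1.16 FPKM on HA food and 23.3 FPKM on control food (change -3.49). The largest positive changes among numbered genes that passed this limit were those of GM14714, at 26.8 FPKM on HA food and 3.11 FPKM on control food (change 2.76), and GM20142, at 18.3 FPKM on HA food and 2.07 FPKM on control food (change 2.65). Within 10000 bases of GM15526 lie 6 genes, of which 3 passed with changes between -0.21 and 0.06.

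At high levels a smaller share of numbered genes was called higher, while the share called lower stayed near that of all numbered genes. Of the 1937 numbered genes with a mean of at least 100 FPKM, 4 were called higher and 15 lower. The shares were 0.169% higher and 0.675% lower at 100 to 300 FPKM, and 0.266% and 0.932% at 300 FPKM or more. Over all numbered genes that passed they were 0.833% and 0.718%. Of the 15 lower genes, 12 have loci under 1000 bases. On scaffold_1 a gene from 8153355 to 8153549 was at 2602 FPKM on HA food and 10249 FPKM on control food (change -1.98), and the next gene, from 8154789 to 8155509, was at 56.0 FPKM on HA food and 286 FPKM on control food (change -2.33). Another on the same scaffold, from 13969490 to 13969948, was at 49.4 FPKM on HA food and 501 FPKM on control food (change -3.32).

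Neighbouring genes could also have opposite changes. On scaffold_0 a gene from 997773 to 998474 was at 1053 FPKM on HA food and 277 FPKM on control food (change 1.92), the next, from 999465 to 999871, at 1173 FPKM on HA food and 3083 FPKM on control food (change -1.39), and one from 1002865 to 1003411 at 925 FPKM on HA food and 374 FPKM on control food, 2.47-fold higher. Of the 180 called genes that are numbered or protein-coding with a symbol, 12 lay directly beside another, as 6 pairs. Of these pairs 1 was higher in both genes, 2 were lower in both and 3 had opposite directions.

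The same genes were read in *D. melanogaster* and *D. simulans* on the same diets, each species normalized in its own table and with other read lengths, so changes are set side by side and levels are not compared. Differences between species were not tested. In *D. melanogaster* 0.335% of 10156 genes were called higher and 0.62% lower (0.955% in all). In *D. simulans* 0.185% of 9185 genes were called higher and 0.501% lower (0.686% in all), against the 1.32% and 0.821% of *D. sechellia*. The 154 higher calls of *D. sechellia* include 22 rRNA copies and 37 noncoding genes with a symbol. Its numbered genes alone gave 0.833% higher and 0.718% lower. The other species were not split by kind of gene, so these shares may rest on unlike sets of genes. In *D. sechellia* 13.0% of genes under 300 bases were called, against 0.926% at 1000 to 3000 bases. The shares count genes past a fold limit on pooled values and do not measure how many genes responded. By its own test on the separate libraries, the study reports far fewer responding genes in *D. sechellia* than in either other species. The median change was -0.11 in *D. simulans* and below 0.01 in *D. melanogaster*. Of 104 genes with a shared symbol that passed in both *D. sechellia* and *D. melanogaster*, 5 were called in *D. sechellia*, 1 in *D. melanogaster* and none in both. Of 96 such genes shared with *D. simulans*, 5 were called in *D. sechellia*, 2 in *D. simulans* and none in both. With so few genes called, a shared call was unlikely in any case, so its absence says little about the species.

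The 5 called genes of *D. sechellia* had changes under 0.7 in size in the other species. CecA1 had a change of -3.29 in *D. sechellia*, -0.68 in *D. melanogaster* (6.63 FPKM on HA food, 11.2 FPKM on control food) and -0.40 in *D. simulans* (5.37 FPKM on HA food, 7.39 FPKM on control food). Sry-alpha had -3.30 in *D. sechellia*, -0.15 in *D. melanogaster* and -0.22 in *D. simulans*, in both of which it was under 4 FPKM on both diets. Dsk was below zero in each species, with -1.06 in *D. sechellia*, -0.59 in *D. melanogaster* and -0.37 in *D. simulans*. Obp8a was also below zero in each, with -1.35 in *D. sechellia*, -0.23 in *D. melanogaster* and -0.44 in *D. simulans*.

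MtnD and Est-6 differed in sign between the species, as did other genes, among them MtnB and MtnC. MtnB had a change of 0.09 in *D. sechellia*, -0.38 in *D. melanogaster* and -0.76 in *D. simulans*. MtnC had 0.17 in *D. sechellia*, -0.43 in *D. melanogaster* and -0.36 in *D. simulans*. MtnD had a change of 1.55 in *D. sechellia*, -0.04 in *D. melanogaster* and -0.56 in *D. simulans*, and Est-6 had 0.68 in *D. sechellia*, -0.56 in *D. melanogaster* and -0.44 in *D. simulans*. MtnA was below zero in all 3, with -0.67 in *D. sechellia*, -0.42 in *D. melanogaster* and -0.99 in *D. simulans*. CecC was lower in *D. melanogaster*, with a change of -1.88 (3.38 FPKM on HA food, 15.1 FPKM on control food), beside -0.91 in *D. sechellia*. Over the 24 Obp genes that passed in *D. sechellia* and *D. melanogaster* the median change was 0.06 in *D. sechellia* with 11 genes below zero, and -0.23 in *D. melanogaster* with 18 below zero. Over the 22 shared with *D. simulans* it was 0.11 in *D. sechellia* with 9 below zero, and -0.37 in *D. simulans* with 15 below zero. One of these, Obp28a, was called higher in *D. simulans*, with a change of 1.64 beside 0.48 in *D. sechellia*.

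**Figure D5:**
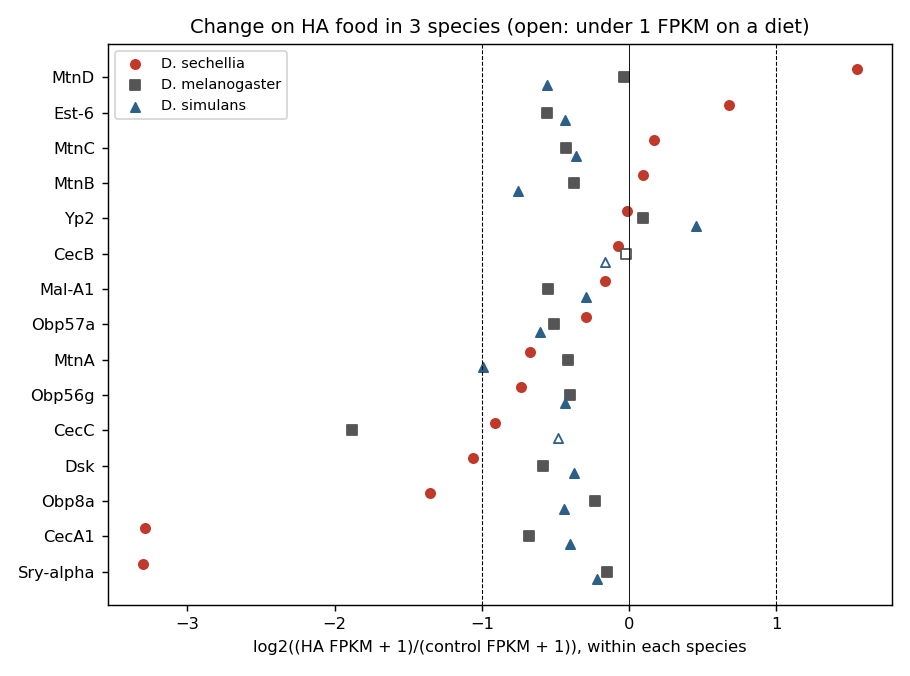
Change on HA food, log2((HA FPKM + 1)/(control FPKM + 1)), of 15 genes with the same symbol in *D. sechellia* (circles), *D. melanogaster* (squares) and *D. simulans* (triangles), ordered by the change in *D. sechellia*. Open symbols mark a level under 1 FPKM on at least 1 diet, and dashed lines mark changes of 1 and -1. MtnD at the top and Sry-alpha and CecA1 at the bottom are past the limits in *D. sechellia* only, and CecC is past the limit in *D. melanogaster* only.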

How the data were processed

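The authors checked reads with FastQC and aligned them with Bowtie2 to the genome of each species, which for *D. sechellia* was the dsec_caf1 assembly. They ran Cuffdiff on Galaxy, once per species, with geometric library normalization and bias correction. Tool versions are not given in the sources used here. The authors deposited, per species, 1 FPKM value for each gene on each diet, which Cuffdiff pools from 3 libraries. Their table also holds a fold change, test statistic, p and q per gene, which are the study's own comparison and were not used.

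From the FPKM values, genes with at least 1 FPKM on both diets were kept and the log2 change was computed with a pseudocount of 1 FPKM. A log2 change of at least 1 in size stood in for a call, since the table holds no value per library from which a test could be computed. Depth per library is not in the tables, so no interval or limit of detection is given. Gene lists were made by symbol pattern, after removal of the species prefix; a pattern meant for chorion genes matched only Cp110, a centriolar protein, and its value stands among the other observations. None of the 17273 *D. sechellia* gene IDs matched the annotation tables used here. Genes sharing a locus in the table were counted by that locus, and strand-aware counting is not stated. Coordinates are those of the table, counted from 1.

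Named genes were the 12 largest increases and decreases among genes with a symbol, the 8 of highest level, the extremes and highest of each list, those nearest each limit, and 2 numbered genes each way; RNAs at 0 on 1 diet are mostly given as counts. Other genes were chosen after their values were seen, among them the metallothioneins as a group, CecC, Rel, the stress genes and the genes set beside Sry-alpha. The members and lists were chosen with earlier results of these data known. Alternatives were other pseudocounts, filters, scalings and subsets of loci. The script was tested on simulated data. Computations used Python 3.11.15, pandas 2.3.3, NumPy 2.4.6 and matplotlib 3.10.9.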

Additional observations from a re-analysis of the deposited data

How the results depend on the processing

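No paired analysis was possible because each diet has 1 pooled value, and for the same reason no replicate could be left out. Counts of called genes moved with the limits set. With a pseudocount of 5 FPKM 88 genes were higher and 45 lower, and 9 genes with a symbol were lower, against 154, 96 and 14. A limit of 5 FPKM on both diets gave 52 lower. A limit of 1 FPKM on either diet, or no limit, gave 335 higher and 259 lower, and 81 and 34 among genes with a symbol, against 38 and 14. Of all genes, 139 of the higher and 107 of the lower ones then had 0 on the other diet. Loci of at least 300 bases gave 96 higher genes in all and 9 lower genes with a symbol, and leave no 5.8S copy. Without the noncoding genes known by symbol, rRNA copies among them, 95 were higher, and 1 higher and 4 lower had a symbol. Leaving out genes that share a locus, an alternative chosen after seeing the data, gave 11 higher and 8 lower genes with a symbol. Rescaling both diets to 1 FPKM total gave 122 higher and 112 lower genes, with a median change of -0.05 and a 5.8S median of 0.80, and centring on the median gave 143 and 101. None of the named genes past the limit changed sign in any of these. After rescaling the list medians of esterases, early embryo genes and the list of Adh, Adhr, Zw and Gld lay just below zero (-0.04, -0.07 and -0.04), as did Hsp83, Jheh3, RpS18 and nos, and with no limit on FPKM the early embryo median was -0.21. Of the 30 named genes past the limit, 29 were past it after rescaling, 29 after centring and 26 with a pseudocount of 5 FPKM.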

Other observations

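Several values belong to no group above. Among the 12 genes of highest mean level in *D. sechellia*, 10 had changes between -0.21 and 0.01. The others, 2 genes of 297 bases on scaffold_6 that start at 2737008 and 2739451, were at 39821 and 39656 FPKM on HA food and at 24079 and 23927 FPKM on control food, a change of 0.73 each. Both are numbered genes, but their IDs, FBgn0255149 and FBgn0255150, fall between those of 5.8S rRNA copies. What they encode was not determined, so the numbered genes may not all be protein-coding. Cp110, a centriolar protein gene, was at 6.71 FPKM on HA food and 6.79 FPKM on control food. Dhc-Yh3, a dynein heavy chain gene by its symbol, was at 364 FPKM on HA food and 393 FPKM on control food in these female pools, over a locus of 279 bases, while kl-2, another dynein gene, was at 0 on both diets. Among genes that passed the 1 FPKM limit on 1 diet only, 360 did so on HA food and 308 on control food. Of these, 139 were at 0 on control food and 107 at 0 on HA food.

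Across genes with a shared symbol, the changes of *D. sechellia* and those of the other species had a Pearson correlation of 0.25 over 104 genes with *D. melanogaster* and of 0.12 over 96 genes with *D. simulans*, and Spearman correlations of 0.10 and 0.11. These are descriptions across genes, which are not replicates, of tables made in separate runs.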
